A study of Mus musculus with 4 samples.

Results

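The 10 genes described here are 4 of the NF-kB subunits (Nfkb1, Nfkb2, Rel and Relb), 5 inhibitors (Nfkbia, Nfkbie, Nfkbiz, Tnfaip3 and Zc3h12a) and Icam1, an adhesion molecule that NF-kB induces. They were taken by symbol from the 31053 mouse features of the count matrices, and all 10 were found. RNA was counted in single cells of 4 mammary tumours grown from H605, a HER2-positive mouse mammary tumour line, in the mammary pad of FVB/NJ mice aged 6 to 8 weeks. In the WT group, 2 tumours grew in wild-type hosts, and in the Il1a-/- group 2 tumours grew in hosts without interleukin 1 alpha. Every host received an injection of the same line, tumours were taken on day 14, and the digested cells were enriched for live ones. The labels give the deletion for the host and describe none in the transplanted line, which is a single line. They do not say that each tumour came from a separate mouse, so p-values measure the spread between these 4 samples. The comparison asks what loss of host interleukin 1 alpha does to these genes in each cell class of the tumour.

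NF-kB dimers rest in the cytoplasm bound to IkB proteins. Interleukin 1, tumour necrosis factor and Toll-like receptor signals activate a kinase that marks IkB for destruction, and the freed dimers enter the nucleus. Among the genes they switch on are their own inhibitors: Nfkbia and Nfkbie encode IkB alpha and IkB epsilon, Tnfaip3 encodes the ubiquitin editor A20, and Zc3h12a encodes Regnase-1, which degrades inflammatory mRNAs. Nfkbiz encodes a nuclear IkB that can also act as a cofactor for some targets. Relb and Nfkb2 form the dimer of the slower non-canonical branch.

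Promoter windows from 250 bases before to 50 bases after an annotated start were available for 7 of the 10 genes in the RefSeq table for GRCm38.p6. At least 1 window held the NF-kB consensus motif on either strand in 5 of the 7 genes (Nfkb2, Rel, Nfkbia, Nfkbie and Tnfaip3), against 8.46% of all 32851 windows and 9.55% of all 27025 genes. Matches on the 2 strands and neighbouring matches can overlap, and a match is a description of letters and not a site of binding. Icam1, Zc3h12a and the second Tnfaip3 window held no match. The windows of Tnfaip3, Nfkbia and Rel are shown because these genes carry the largest differences below or are the classical feedback targets, and Nfkb2 because it holds matches and its host groups overlapped in phagocytes. Capitals mark the matches. The windows lie at chr10:19015361-19015660 (minus strand) for Tnfaip3, chr12:55492598-55492897 (minus strand) for Nfkbia, chr11:23770920-23771219 (minus strand) for Rel and chr19:46304487-46304786 (plus strand) for Nfkb2, and each is written 5' to 3' in the direction of its gene.
Tnfaip3: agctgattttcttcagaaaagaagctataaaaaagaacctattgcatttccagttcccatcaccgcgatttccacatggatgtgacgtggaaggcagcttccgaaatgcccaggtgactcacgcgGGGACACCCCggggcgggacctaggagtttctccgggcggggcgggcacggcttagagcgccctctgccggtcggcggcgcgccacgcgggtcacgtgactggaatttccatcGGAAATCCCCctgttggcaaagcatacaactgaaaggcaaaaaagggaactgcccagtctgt
Nfkbia: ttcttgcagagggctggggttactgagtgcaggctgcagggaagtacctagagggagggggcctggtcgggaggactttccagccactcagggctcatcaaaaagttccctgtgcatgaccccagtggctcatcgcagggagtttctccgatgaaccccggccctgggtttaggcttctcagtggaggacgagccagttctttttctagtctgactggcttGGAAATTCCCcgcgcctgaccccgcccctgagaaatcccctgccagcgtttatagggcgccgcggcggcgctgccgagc
Rel: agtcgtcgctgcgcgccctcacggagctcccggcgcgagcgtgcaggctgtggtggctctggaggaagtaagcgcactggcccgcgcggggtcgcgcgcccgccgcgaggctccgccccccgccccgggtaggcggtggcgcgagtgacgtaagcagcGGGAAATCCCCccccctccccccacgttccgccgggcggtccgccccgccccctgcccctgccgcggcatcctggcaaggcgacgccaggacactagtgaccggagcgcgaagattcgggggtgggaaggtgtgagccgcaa
Nfkb2: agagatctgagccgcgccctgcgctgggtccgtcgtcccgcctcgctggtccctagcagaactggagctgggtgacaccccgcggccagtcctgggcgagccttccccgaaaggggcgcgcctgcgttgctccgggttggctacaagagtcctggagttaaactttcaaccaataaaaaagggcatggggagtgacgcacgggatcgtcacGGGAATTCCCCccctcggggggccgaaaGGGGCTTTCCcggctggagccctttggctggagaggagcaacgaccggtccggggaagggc
In Tnfaip3 the matches began at positions -125 and -12 relative to the start, in Nfkbia at -29, in Rel at -92 and -91, and in Nfkb2 at -39, -38 and -11.

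The libraries held 23462739 and 28999819 mouse UMIs (tags that count single captured molecules) in WT and 6704859 and 15297495 in Il1a-/- tumours. The number of called cells ranged from 3130 to 3864, and the median cell held 1349 to 4204.5 UMIs, with Il1a-/- replicate 1 the shallowest. Il1a had 64 and 109 UMIs in called cells of the WT tumours and 1 and 0 in those of the Il1a-/- tumours, matching the labels, where a limit of 3 UMIs is 0.547 and 0.227 CPM. Libraries shared 0 to 5 cell barcodes. Cells were classed by marker genes, and 5 classes had at least 20 cells in every tumour: mononuclear phagocyte-like, T/NK-like, fibroblast-like, and conventional and plasmacytoid dendritic-like cells. All values are CPM, the UMIs of a gene per 1000000 mouse UMIs of the class, and differences are log2 fold changes, Il1a-/- minus WT, from quasi-likelihood tests in edgeR, with p-values adjusted over all genes tested in the class by the Benjamini-Hochberg method. Fewer transcripts per cell and fewer cells of one kind within a class cannot be told apart in these sums.

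Levels of the NF-kB genes were set side by side across cells. Among the 7 classes and numbered clusters with at least 20 cells in each of the 4 tumours, cluster 6 had the highest mean of Nfkb1, Nfkbia, Nfkbiz, Tnfaip3 and Zc3h12a. This cluster was led by Il13, Il4, Il5 and Il1rl1 (3 cytokines and the receptor of interleukin 33), and stayed unnamed by the marker rule, as did cluster 0, led by S1pr1, Ccr7 and Tcf7. Mean Nfkb1 in cluster 6 was 612 CPM ± 85.9 (SD, n = 4), and its range did not overlap that of the next class. For the other 9 genes the range of the highest class overlapped that of the next, so their first place is not separated from the second. Among the 7, conventional dendritic-like cells had the highest means of Nfkb2 (53.1 CPM, range 28.2 to 72.6), Rel (393 CPM, 278 to 462), Relb (58.7 CPM, 37.6 to 99.0) and Icam1 (119 CPM, 97.0 to 132). Phagocyte-like cells had that of Nfkbie (68.4 CPM, 53.5 to 103).

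**Figure D1:**
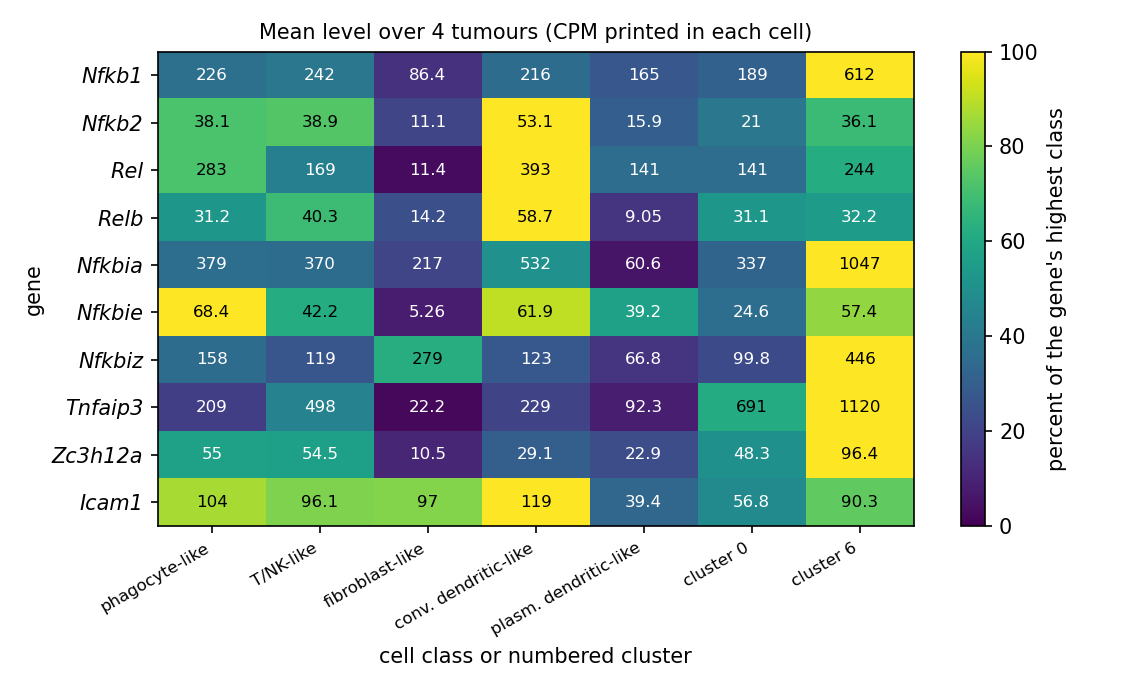
Mean level of each gene over 4 tumours in 5 cell classes and 2 numbered clusters, with the mean in CPM printed in each field and the colour giving percent of that gene's highest class. Among these 7, cluster 6 holds the highest mean of 5 genes, including Tnfaip3 (1120.3 CPM), and fibroblast-like cells the lowest of 6, including Rel (11.4 CPM).

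Fibroblast-like cells had the lowest mean of Nfkb1, Nfkb2, Rel, Nfkbie, Tnfaip3 and Zc3h12a. Their Rel mean of 11.4 CPM ± 2.58 and Tnfaip3 mean of 22.2 CPM ± 3.49 lay below every tumour's value in every other of the 7 classes. Nfkbiz went the other way, with a fibroblast-like mean of 279 CPM ± 40.5, second to cluster 6. Plasmacytoid dendritic-like cells had the lowest Nfkbia, at 60.6 CPM ± 11.1, again without overlap. There were 443 and 252 tumour epithelial-like cells in the WT tumours, 29 in Il1a-/- replicate 1 and 3 in replicate 2, so they were not compared between hosts. In the WT tumours they held 12.5 and 6.87 CPM of Tnfaip3. Neutrophil-like cells, with 33 and 68 cells in WT and under 20 in each Il1a-/- tumour, held 2242 and 3503 CPM of Nfkbia, 1682 and 1051 CPM of Nfkbiz and 202 and 165 CPM of Zc3h12a in WT. Their WT means of these 3 genes lay above the means of cluster 6, but they are outside the 7 for want of cells.

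In phagocyte-like cells, 9 of the 10 genes had both Il1a-/- values above both WT values, and none was lower in this way, while 20.4% of 8963 genes tested were higher and 27.1% lower without overlap. The median log2 fold change of the 10 was 0.67, against -0.02 over all genes tested. Tnfaip3, Nfkbiz, Rel and Nfkbia had the largest values. None of the 10 passed the adjusted threshold of 0.05, which 0.112% of genes tested did (0.0893% as higher), and 7 of the 10 had an unadjusted p under 0.05, as did 14.1% of all genes.

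Among the subunits, Rel, the c-Rel subunit of lymphoid and myeloid cells, was at 189.9 and 182 CPM in WT and 392 and 367 CPM in Il1a-/- tumours. The Il1a-/- values lay close together and well above WT, and the log2 change was 1.05 with an SE of 0.20 (adjusted p = 0.0763). Nfkb1, the precursor of p50, was at 160.0 and 188 CPM in WT and 266 and 290.0 CPM in Il1a-/- tumours, and the log2 change was 0.71 with an SE of 0.22 (adjusted p = 0.229). Relb was at 25.7 and 27.8 CPM in WT and 34.3 and 36.8 CPM in Il1a-/- tumours, and its log2 change was 0.47 with an SE of 0.25 (adjusted p = 0.431). Nfkb2, the precursor of p52, stood apart from the others. It was at 36.5 and 44.1 CPM in WT and 40.0 and 31.6 CPM in Il1a-/- tumours, so the groups overlapped, and its log2 change was -0.21 with an SE of 0.26 (adjusted p = 0.751).

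Of the inhibitors, Tnfaip3 was at 112 and 107 CPM in WT and 352 and 266 CPM in Il1a-/- tumours. Both WT tumours were low and both Il1a-/- tumours high, and the log2 change was 1.50 with an SE of 0.21 (adjusted p = 0.0525), short of a call at 0.05. Over 12 alternatives its adjusted p ran from 1.39e-05 to 0.229, and it passed in 7. Fitted in pairs by replicate number (the replicate block, under which 0.926% of genes passed) it was called, at 1.50 (adjusted p = 0.0296), and so was Nfkbiz (1.23, adjusted p = 0.0456). Nfkbiz was at 117 and 74.9 CPM in WT and 263 and 177 CPM in Il1a-/- tumours, and without the block its log2 change was 1.19 with an SE of 0.28 (adjusted p = 0.120). Nfkbia was at 255 and 279.8 CPM in WT and 500.2 and 483 CPM in Il1a-/- tumours. The 2 groups were separate, and the log2 change was 0.90 with an SE of 0.21 (adjusted p = 0.120). Nfkbie was at 53.5 and 55.1 CPM in WT and 103 and 62.1 CPM in Il1a-/- tumours, where Il1a-/- replicate 1 was the highest, and the log2 change was 0.54 with an SE of 0.26 (adjusted p = 0.392). For Zc3h12a the values were 51.5 and 40.1 against 65.7 and 62.7 CPM and the log2 change 0.53 with an SE of 0.23 (adjusted p = 0.352). Icam1, the target, was at 76.2 and 84.5 CPM in WT and 152 and 102 CPM in Il1a-/- tumours, and the log2 change was 0.63 with an SE of 0.24 (adjusted p = 0.299).

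**Figure D2:**
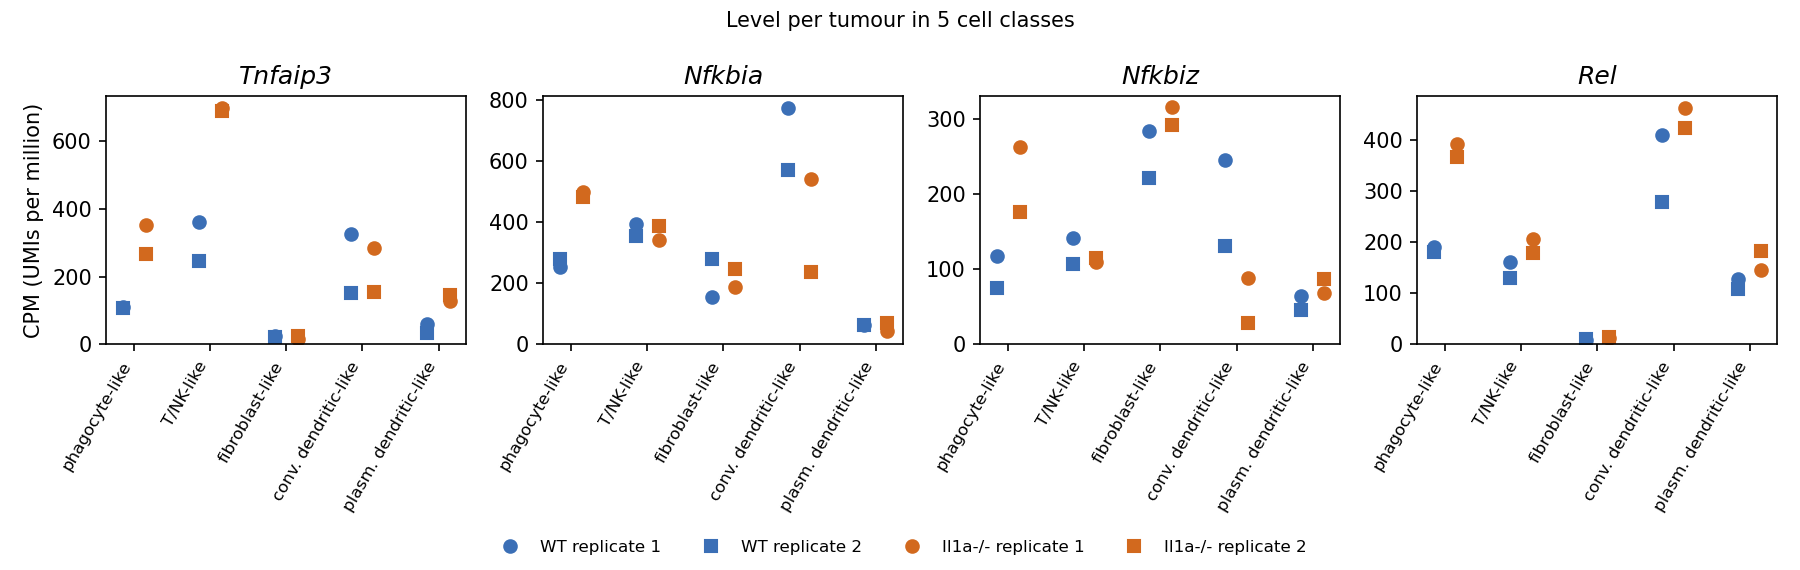
Levels of Tnfaip3, Nfkbia, Nfkbiz and Rel in CPM for each tumour in 5 cell classes, with WT in blue, Il1a-/- in orange, and circles and squares for replicates 1 and 2. In phagocyte-like cells both Il1a-/- points lie above both WT points for all 4 genes, and in conventional dendritic-like cells both Il1a-/- points of Nfkbia and Nfkbiz lie below both WT points.

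Other values moved with the host in this class. Its sub-clusters were unevenly shared: sub-cluster 3 held 29 and 161 cells in WT against 5 and 6 in Il1a-/- tumours, sub-cluster 4 held 2 and 20 against 7 and 125, and sub-cluster 7 held 3 and 5 against 58 and 18. Without sub-clusters 3, 4 and 6, each with over 80% of its cells from 1 library, the log2 change of Tnfaip3 was 1.38 (adjusted p = 0.0578). Sub-cluster 7 stayed in that fit, as did sub-cluster 0, with 43 and 176 cells in WT against 5 and 28 in Il1a-/- tumours. The fit thus left part of the uneven sharing in place. Markers of mononuclear phagocytes summed to 20784 and 18461 CPM in WT and 13487 and 12070.1 CPM in Il1a-/- tumours, with all 14 detected, and T/NK markers to 68.9 and 83.5 against 263 and 189 CPM, also with all 14 detected. A list of 18 dissociation response genes summed to 8480.2 and 6539.9 CPM in WT and 10474 and 10911 CPM in Il1a-/- tumours. Taking 4 T cell genes as a gauge of stray RNA, free RNA could supply up to 9.04% and 6.32% of Tnfaip3 in WT and 18.3% and 12.1% in Il1a-/- tumours, and after subtraction its level was 102 and 100.2 against 287 and 234 CPM. Sub-cluster 13, led by Cxcr6, Cd3e, Icos and Cd3g, stayed in the class, with 5 and 6 cells in WT and 8 and 7 in Il1a-/- tumours. The gauge cannot tell the T cell genes of these cells from free RNA, and it sets no limit on the Tnfaip3 they carry. The part of dissociation and of cell mixture in these differences was not tested.

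The same genes were read in macrophage-like and monocyte-like sub-clusters, without a test between them. In macrophage-like cells (199 and 231 cells in WT, 35 and 133 in Il1a-/- tumours), 6 of the 10 genes were higher without overlap, against 22.9% of genes with a mean of at least 10 CPM, and 1 was lower (Nfkb2), against 21.5%. Tnfaip3 there was at 79.2 and 96.7 CPM in WT and 214 and 288 CPM in Il1a-/- tumours. Nfkbiz was at 64.5 and 57.0 CPM in WT and 151 and 176 CPM in Il1a-/- tumours. The macrophage-like cells came from different sub-clusters by host: sub-cluster 1 held 66 and 146 cells in WT against 8 and 31 in Il1a-/- tumours, sub-cluster 6 held 86 and 9 against 0 and 0, and sub-cluster 5 held 15 and 40 against 20 and 67. In monocyte-like cells (87 and 86 cells against 43 and 72), none was higher without overlap, against 17.2% of genes, and 4 were lower (Nfkb2, Nfkbia, Nfkbie and Zc3h12a), against 20.7%. Monocyte-like Tnfaip3 was at 200.2 and 195 CPM in WT and 187 and 247 CPM in Il1a-/- tumours, where the groups overlapped. Monocyte-like Nfkbia was at 567 and 597 CPM in WT and 390.4 and 476 CPM in Il1a-/- tumours. In Il1a-/- replicate 1 the macrophage-like values rest on 17 UMIs of Tnfaip3, 15 of Nfkbia, 9 of Icam1 and 2 of Nfkb2. The lower monocyte-like values rest there on 2 UMIs of Nfkb2, 4 of Nfkbie and 1 of Zc3h12a, where a limit of 3 UMIs is 46.9 CPM, and on 25 of Nfkbia.

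In T/NK-like cells Tnfaip3 rose and the remaining genes did not pass the threshold. It was at 360.5 and 245 CPM in WT and 697 and 688 CPM in Il1a-/- tumours. The 2 Il1a-/- tumours were alike and above both WT tumours, and the log2 change was 1.23 with an SE of 0.21 (adjusted p = 0.0259). It was the 1 gene of the 10 called, against 4.42% of 10746 genes tested, and the median log2 fold change of the 10 was 0.03, against -0.01 over all genes. Of the 10, 4 were higher without overlap (23.6% of genes) and 3 lower (31.6%). The call was lost without WT replicate 2 (log2 change 1.00, adjusted p = 0.151) and without the CD8 T-like sub-clusters (1.10, adjusted p = 0.0565). The CD8 T-like sub-clusters had 5 and 22 cells in WT against 830 and 553 in Il1a-/- tumours, where they held 760.4 and 799 CPM of Tnfaip3.

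Zc3h12a was at 49.9 and 35.6 CPM in WT and 68.4 and 64.1 CPM in Il1a-/- tumours, without overlap. Its log2 fold change was 0.68 with an SE of 0.19 (adjusted p = 0.0887), and it passed with the replicate block (0.70, adjusted p = 0.0340), as did 9.92% of genes. Rel was at 161 and 131 CPM in WT and 206 and 179 CPM in Il1a-/- tumours, and the log2 change was 0.43 with an SE of 0.18 (adjusted p = 0.190). Nfkbia overlapped between hosts, at 395 and 356 CPM in WT and 342 and 388 CPM in Il1a-/- tumours, and its log2 change was -0.0029 with an SE of 0.17 (adjusted p = 0.993). The subunits Nfkb1, Nfkb2 and Relb had both Il1a-/- values below both WT values, at 271 and 260.2 against 230.2 and 208 CPM, 45.2 and 42.0 against 35.0 and 33.3 CPM and 44.7 and 45.0 against 34.7 and 36.6 CPM. Their log2 fold changes of -0.24, -0.32 and -0.29 did not pass (adjusted p = 0.399, 0.278 and 0.315). Icam1 was at 93.1 and 82.5 CPM in WT and 97.6 and 111 CPM in Il1a-/- tumours, Nfkbie at 48.4 and 35.7 CPM in WT and 42.4 and 42.6 CPM in Il1a-/- tumours and Nfkbiz at 142 and 107 CPM in WT and 109.8 and 116 CPM in Il1a-/- tumours.

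The same genes were also read within 3 lymphocyte sub-classes and in the 2 numbered clusters. Tnfaip3 was higher without overlap in each of these 5. In NK-like cells, drawn mostly from sub-clusters 1 and 6 in WT and 0 in Il1a-/- tumours, it was at 307 and 234 CPM in WT and 671 and 605 CPM in Il1a-/- tumours. In gamma-delta T-like cells it was at 305 and 225 CPM in WT and 894 and 774 CPM in Il1a-/- tumours. Their sub-cluster 9 held 150 and 164 cells in WT against 7 and 2 in Il1a-/- tumours, and sub-cluster 5 held 145 and 86 against 155 and 193. In CD4 T-like cells Tnfaip3 was at 623 and 397 CPM in WT and 723 and 1232 CPM in Il1a-/- tumours. These cells all came from sub-cluster 3, led by Foxp3, Areg and Lrrc32, so their values are not those of CD4 T cells at large. Cluster 0 held 487 and 238 CPM in WT and 926 and 1113 CPM in Il1a-/- tumours, and cluster 6 718 and 369 CPM in WT and 1649 and 1745 CPM in Il1a-/- tumours. Of the 10 genes, 7 were higher without overlap in NK-like cells (33.5% of genes with a mean of at least 10 CPM, and 29.9% lower), 8 in gamma-delta T-like cells (26.7%), 5 in CD4 T-like cells (20.6%), 7 in cluster 0 (26.2%) and 7 in cluster 6 (24.0%). Lower without overlap were 1 in CD4 T-like cells (Nfkb2, against 22.1%) and none in gamma-delta T-like cells (25.7%), cluster 0 (21.7%) or cluster 6 (27.1%). The lower Nfkb2 in CD4 T-like cells rests on 14 UMIs over both Il1a-/- tumours. Replicate 1 of that group held only 46 of these cells, with 65019 UMIs of all genes.

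Nfkbia, which overlapped in T/NK-like cells as a whole, was higher without overlap in their NK-like and gamma-delta T-like cells. In CD4 T-like cells Nfkbia overlapped. In clusters 0 and 6, which are not part of the T/NK-like class, Nfkbia was higher without overlap. It was at 255 and 250.3 CPM in WT and 346 and 309.7 CPM in Il1a-/- tumours in NK-like cells and at 959 and 646 CPM in WT and 1411 and 1171 CPM in Il1a-/- tumours in cluster 6. In CD8 T-like cells of the Il1a-/- tumours it stood at 279.7 and 317 CPM. Rel in cluster 6 was at 125 and 78.2 CPM in WT and 379 and 394 CPM in Il1a-/- tumours. Sub-clusters and numbered clusters were not tested.

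**Figure D3:**
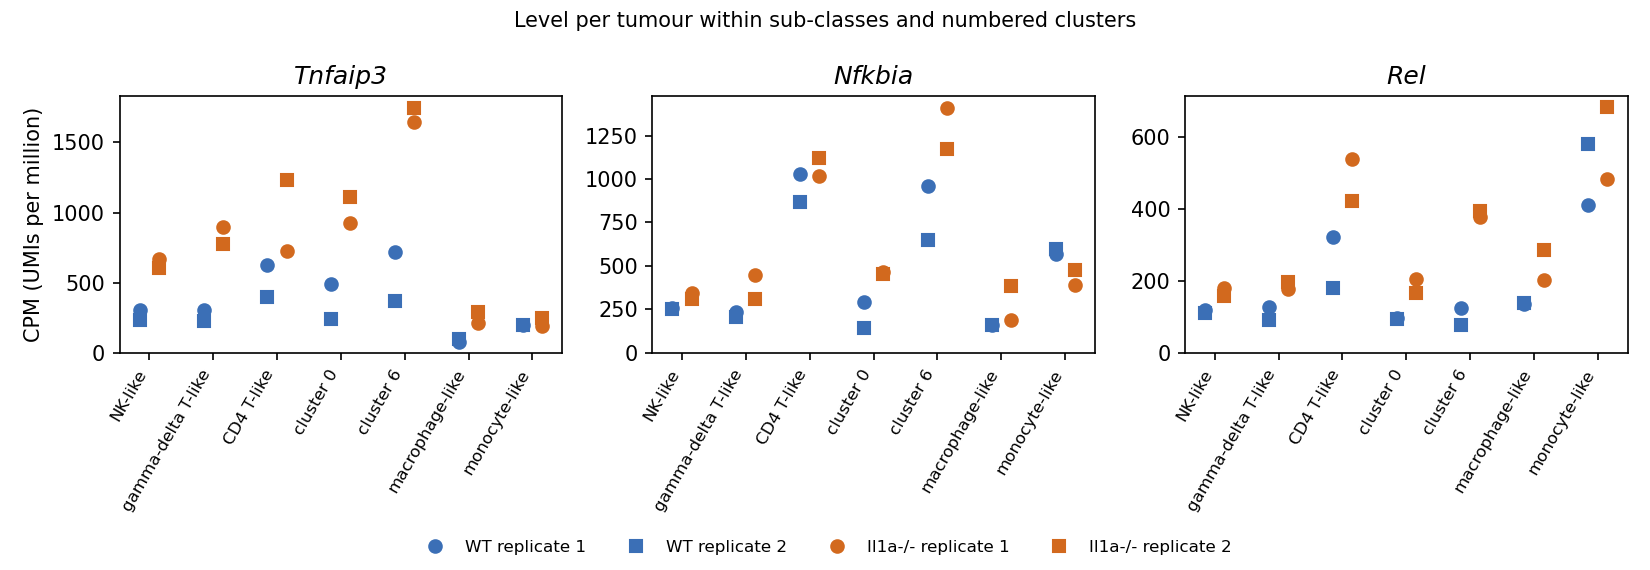
Levels of Tnfaip3, Nfkbia and Rel in CPM for each tumour within lymphocyte sub-classes, 2 numbered clusters, and macrophage-like and monocyte-like cells, with colours and symbols for host and replicate. Both Il1a-/- points of Tnfaip3 lie above both WT points everywhere except in monocyte-like cells.

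In conventional dendritic-like cells, 7 of the 10 genes had both Il1a-/- values below both WT values and 1, Rel, above, while 23.5% of 4809 genes tested were lower and 16.5% higher in this way. None of the 10 passed, as 0.0416% of genes did, and 4 had an unadjusted p under 0.05, as did 9.57% of all genes. The class held 75 and 96 cells in WT and 33 and 44 in Il1a-/- tumours. The median log2 fold change of the 10 was -0.86, against -0.04 over all genes.

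Nfkbiz was at 245 and 131 CPM in WT and 88.5 and 28.2 CPM in Il1a-/- tumours, resting on 9 UMIs in each Il1a-/- tumour, and the log2 change was -1.95 with an SE of 0.56 (adjusted p = 0.407). It passed without Il1a-/- replicate 1 (-2.63, adjusted p = 0.0191), but leaving out Il1a-/- replicate 2 instead gave -1.07 (adjusted p = 0.647). Zc3h12a was at 74.2 and 26.0 CPM in WT and 9.83 and 6.26 CPM in Il1a-/- tumours, from 1 and 2 UMIs in the latter, so its size is poorly known. Nfkbia was at 775 and 572 CPM in WT and 541 and 238 CPM in Il1a-/- tumours, and the log2 change was -0.83 with an SE of 0.38 (adjusted p = 0.552). The non-canonical pair was lower without overlap as well: Nfkb2 was at 72.2 and 72.6 CPM in WT and 39.3 and 28.2 CPM in Il1a-/- tumours, and Relb at 99.0 and 58.9 CPM in WT and 39.3 and 37.6 CPM in Il1a-/- tumours. The log2 change was -1.13 with an SE of 0.38 (adjusted p = 0.449) for Nfkb2 and -0.96 with an SE of 0.46 (adjusted p = 0.574) for Relb. Nfkbie was at 82.5 and 82.2 CPM in WT and 39.3 and 43.8 CPM in Il1a-/- tumours and Rel at 410.3 and 278 CPM in WT and 462 and 423 CPM in Il1a-/- tumours. The 10 dendritic markers summed to 2214 and 1543 CPM in WT and 895 and 1321 CPM in Il1a-/- tumours, and the T/NK markers to 280.4 and 434 against 964 and 770.1 CPM. Ccl22 and Cd209a, 2 of those dendritic markers, were at 767 and 140 against 29.5 and 309.9 CPM, and at 476 and 356 against 167 and 87.6 CPM. The markers did not all move this way. Xcr1 was at 115 and 223 against 236 and 194 CPM, and Flt3 at 88.7 and 108 against 148 and 90.8 CPM, with overlap in both. Free RNA, gauged by the same 4 T cell genes, could supply up to 13.9% and 32.7% of Nfkbiz in WT and 98.1% and 230.2% in Il1a-/- tumours, and up to 11.3% and 18.7% of Nfkbia in WT and 34.4% and 56.8% in Il1a-/- tumours. A share over 100% means that the bound exceeds the measured level, as it also does in both Il1a-/- tumours for Tnfaip3 (114% and 174%) and Zc3h12a. The gauge counts every UMI of the 4 T cell genes as free RNA. It would make free RNA 42.9% and 51.6% of the class in WT and 75.1% and 38.4% in Il1a-/- tumours. It cannot tell free RNA from RNA of T cells caught with these cells, so the bound can lie far above the true share. With the whole bound subtracted, Rel was at 388 and 247 against 383 and 370.3 CPM, and its groups overlapped. The part of free RNA and of a changed cell mixture in the NF-kB values was not tested.

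In plasmacytoid dendritic-like cells Tnfaip3 rose, at 59.5 and 34.0 CPM in WT and 129 and 147 CPM in Il1a-/- tumours, and the log2 change was 1.54 with an SE of 0.29 (adjusted p = 0.0124). Both Il1a-/- values exceeded both WT values, and the call was kept under all 11 alternatives fitted. It was 1 of 8 genes tested, since Nfkb2 and Relb fell below the count filter, and 1.84% of 5925 genes tested were called (1.52% as higher, 0.321% as lower), and 15.1% had an unadjusted p under 0.05. Of the 10, 5 were higher without overlap (21.5% of genes) and 1, Nfkbie, lower (24.1%). Rel was at 127 and 108 CPM in WT and 145 and 183 CPM in Il1a-/- tumours (log2 change 0.51, adjusted p = 0.301), and Nfkbie at 43.7 and 58.7 CPM in WT and 28.2 and 26.1 CPM in Il1a-/- tumours (-0.87, adjusted p = 0.285). Nfkbia, Nfkbiz, Zc3h12a, Nfkb1 and Icam1 did not pass either. Free RNA, gauged by the same 4 T cell genes, could supply up to 50.4% and 32.8% of Tnfaip3 in WT and 48.8% and 0% in Il1a-/- tumours. The 0% rests on no UMI of these 4 genes among 421513 UMIs of Il1a-/- replicate 2, so it is a counting limit and not an upper bound. After subtraction the level was 29.5 and 22.8 against 66.0 and 147 CPM, the last with nothing taken off. Dissociation response genes passed in both directions in this class, 2 higher and 2 lower of 17 tested. Jun fell, at 534 and 325 CPM in WT and 101 and 54.6 CPM in Il1a-/- tumours (log2 change -2.53 with an SE of 0.32, adjusted p = 0.00140), and Hspa1b, a heat shock protein, fell as well, at 269 and 41.7 CPM in WT and 8.05 and 2.37 CPM in Il1a-/- tumours (adjusted p = 0.0228). The immediate early genes Nr4a1 and Fosb rose, with log2 changes of 1.02 and 1.08 (adjusted p = 0.0228 and 0.0462). The sum of the 18 was 4901 and 3383 CPM in WT and 3799 and 4448 CPM in Il1a-/- tumours, and their part in the Tnfaip3 difference was not tested.

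In fibroblast-like cells no difference was detected in the 10 genes. None passed, nor did any of 9582 genes (0%), and 463 genes (4.83%) had an unadjusted p under 0.05, none of the 10 among them, while DESeq2 called 12 genes, none of them among the 10. Nfkbiz, the gene in which this class stood high, was at 285 and 221 CPM in WT and 316 and 293 CPM in Il1a-/- tumours, and the log2 change was 0.27 with an SE of 0.26 (adjusted p = 0.900). Of the 10, 3 were higher without overlap (17.7% of genes) and 1 lower (18.4%). Icam1 was at 111 and 56.3 CPM in WT and 56.3 and 164 CPM in Il1a-/- tumours, where each group held 1 high and 1 low tumour. Dissociation response genes summed to 11881 and 10478 CPM in WT and 17325 and 19178 CPM in Il1a-/- tumours.

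**Figure D4:**
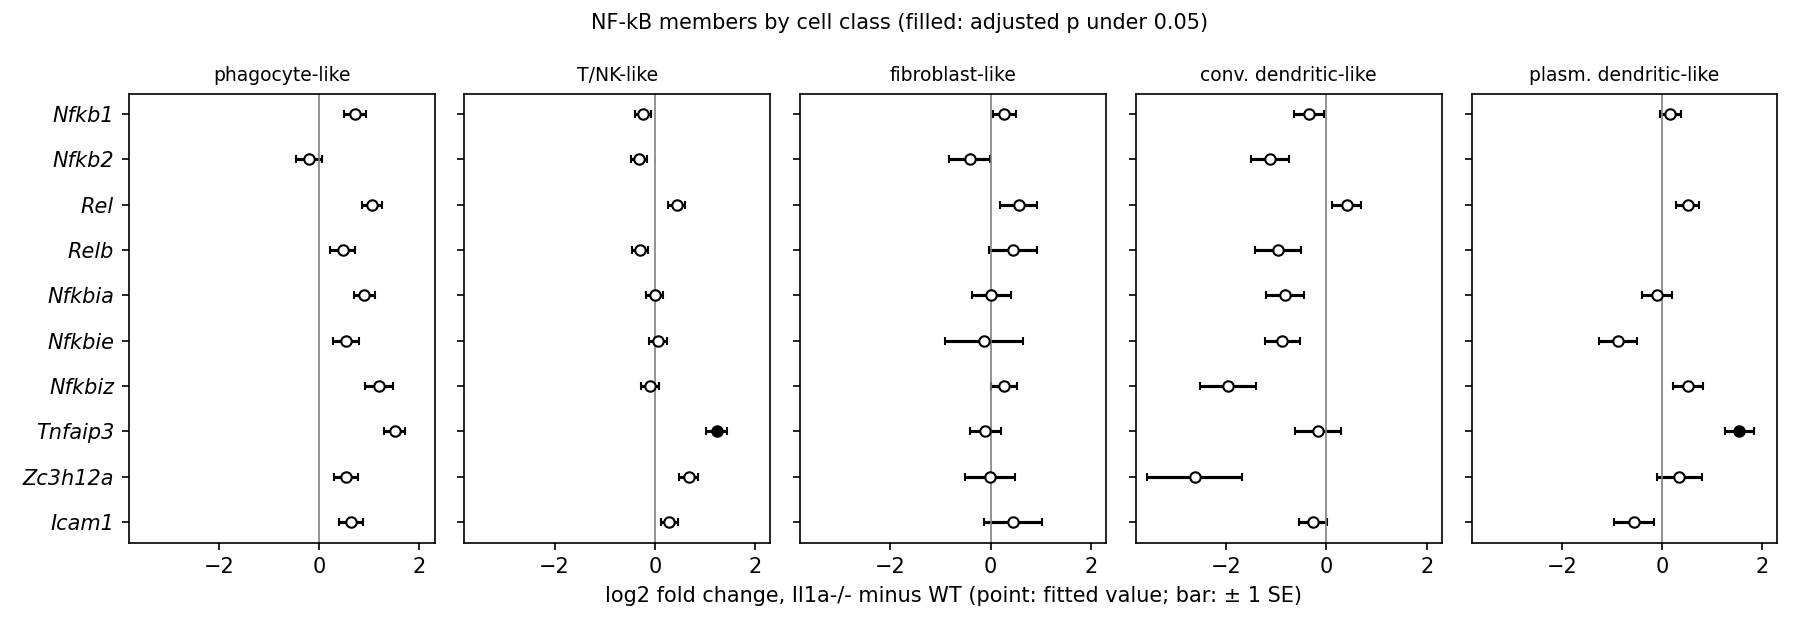
Log2 fold change, Il1a-/- minus WT, of each gene in 5 cell classes, with bars of 1 standard error; filled points passed the adjusted threshold. Tnfaip3 is filled in T/NK-like (1.23) and plasmacytoid dendritic-like cells (1.54), points lie right of 0 in phagocyte-like cells except Nfkb2 (-0.21), and left of 0 in conventional dendritic-like cells except Rel (0.41).

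Whether the host effect differed between classes was tested directly, as the difference of the log2 changes with the tumour as a block. Between T/NK-like and phagocyte-like cells it was -1.24 for Nfkbiz (SE 0.24, adjusted p = 0.0264), the 1 gene of the 10 among 0.683% of 10982 genes called. For Nfkbia it was -0.86 (adjusted p = 0.0988) and for Nfkb1 -0.92 (adjusted p = 0.106), while for Tnfaip3 it was -0.19 (SE 0.24, adjusted p = 0.863). Without WT replicate 2, or without either Il1a-/- replicate, the Nfkbiz call was lost and 0 of the 10 passed, as with cells of at least 1000 UMIs and with a per-cell marker gate. Between conventional dendritic-like and phagocyte-like cells, a comparison added after the levels were seen, the difference was -3.08 for Nfkbiz (SE 0.40, adjusted p = 7.92e-04) and -1.78 for Nfkbia (SE 0.36, adjusted p = 0.0314), among 0.378% of 7142 genes called. It was -1.57 for Tnfaip3 (adjusted p = 0.0732). The free-RNA bounds given for conventional dendritic-like cells touch these values, and they were not subtracted in the test. Without Il1a-/- replicate 2 none of the 10 passed, and without WT replicate 1 only 1 did.

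The wider pathway was read from lists of other NF-kB genes. In phagocyte-like cells 1 of 29 inflammatory targets tested rose: Cxcl2, a neutrophil chemokine, at 668 and 486 CPM in WT and 2069.6 and 2183 CPM in Il1a-/- tumours (log2 change 1.91 with an SE of 0.25, adjusted p = 0.0423). The median log2 fold change of those 29 was 1.23, against -0.02 over all genes tested, and 24 were above 0. Of the 29, 16 were higher without overlap and 3 lower, against 20.4% and 27.1% of all genes tested. The list of inflammatory targets includes Il1a, the gene deleted in the hosts. None of 12 further subunits, IkB proteins and kinases, 24 receptors and adaptors, 17 brakes and 13 survival genes passed there. In T/NK-like cells, where 2.61% of genes passed as higher and 1.81% as lower, 2 of 18 inflammatory targets rose: Csf1, the macrophage growth factor, at 8.59 and 7.81 CPM in WT and 41.1 and 32.0 CPM in Il1a-/- tumours (log2 change 2.18 with an SE of 0.21, adjusted p = 0.00764), and the chemokine Ccl5, at 1866 and 1634 CPM in WT and 12473 and 7117 CPM in Il1a-/- tumours (log2 change 2.51 with an SE of 0.28, adjusted p = 0.00805). Lcn2, a product of neutrophils and here also a leading gene of a tumour epithelial-like cluster, fell. It was at 17.0 and 5.64 CPM in WT with no UMI in either Il1a-/- tumour, where 3 UMIs would be 0.963 and 0.446 CPM. Neutrophil markers summed to 88.3 and 5.53 CPM in WT and 5.46 and 5.50 CPM in Il1a-/- tumours of this class. Tumour epithelial markers summed to 112 and 84.0 CPM in WT and 50.4 and 15.9 CPM in Il1a-/- tumours. The source of the Lcn2 UMIs was not tested.

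Signal adaptors moved both ways in T/NK-like cells. Irak2, an adaptor of the interleukin 1 receptor family, was at 34.7 and 23.7 CPM in WT and 91.8 and 68.0 CPM in Il1a-/- tumours (log2 change 1.49 with an SE of 0.22, adjusted p = 0.0173), and Traf2, an adaptor of tumour necrosis factor receptors, at 32.4 and 31.7 CPM in WT and 17.0 and 16.7 CPM in Il1a-/- tumours (log2 change -0.89 with an SE of 0.18, adjusted p = 0.0360); these were 2 of 22 tested. Among 18 brakes, Sqstm1, an autophagy receptor, rose, at 83.4 and 77.1 CPM in WT and 151 and 133 CPM in Il1a-/- tumours (log2 change 0.85 with an SE of 0.16, adjusted p = 0.0310). Of 13 survival targets, Ier3, Bcl2a1b and Bcl2a1d rose, with log2 fold changes of 1.10, 1.38 and 1.46 (adjusted p = 0.0304, 0.0305 and 0.0450). The 2 Bcl2a1 genes are near copies, so their counts are uncertain. Dissociation response genes passed in both directions in this class: Egr1, Atf3, Socs3 and Fosb rose, with log2 changes of 0.87, 1.22, 0.77 and 1.14, and Jun fell, at 115 and 69.9 CPM in WT and 36.0 and 34.7 CPM in Il1a-/- tumours (log2 change -1.35 with an SE of 0.24, adjusted p = 0.0289). In plasmacytoid dendritic-like cells Plaur, the urokinase receptor, rose, at 148 and 95.8 CPM in WT and 334 and 335 CPM in Il1a-/- tumours (log2 change 1.45 with an SE of 0.23, adjusted p = 0.00564), 1 of 4 inflammatory targets tested. No listed gene passed in fibroblast-like or conventional dendritic-like cells. The inflammatory targets with the smallest p were Tnfaip2 (log2 change 1.35, adjusted p = 0.407), Ptgs2 (log2 change -1.55, adjusted p = 0.453) and Plaur (log2 change -1.16, adjusted p = 0.500) in conventional dendritic-like and Lcn2 (log2 change -2.40, adjusted p = 0.869), Ccl5 (log2 change 1.29, adjusted p = 0.869) and Ccrl2 (log2 change 1.20, adjusted p = 0.869) in fibroblast-like cells.

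Likeness of pattern was described over 35 sums of 1 class in 1 tumour, which share libraries and depth, so it is given without a test. Among 8453 genes, those most correlated with Tnfaip3 were Akna (0.93), Zc3hav1 (0.92), Ppp1r18 (0.91). For Rel they were Pmaip1 (0.91), Actr2 (0.91), Cytip (0.91), and for Nfkbia Map2k3 (0.81), Ifrd1 (0.81), Junb (0.80). For Icam1 they were Pim1 (0.75), Cpt1a (0.74), Birc3 (0.70). Among the 10 genes themselves, Nfkb1 and Tnfaip3 had a Pearson r of 0.72, Rel and Nfkbie 0.71, and Nfkbia and Nfkbiz 0.70, while Rel and Nfkbiz had -0.14.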

How the data were processed

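Single-cell RNA counts of 4 tumours were analysed. Per the submitters' processing notes, the deposited counts were made with Cell Ranger 3.1.0 against mm10; the feature names hold a combined human and mouse reference of 64591 features. The values are raw UMI counts as deposited, unfiltered and not normalized, per the file headers and values. No column of any other sample was used.

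Barcodes with at least 500 UMIs, 250 genes and at most 20% mitochondrial UMIs were kept, tested below 5000 UMIs against free RNA (barcodes of at most 100 UMIs, false discovery rate 0.001), and cleared of the cells with the highest Scrublet doublet scores, 0.8% per 1000 cells (scanpy 1.11.5). Cells were clustered by the Leiden method (leidenalg 0.10.2, 2000 variable genes, 30 principal components, 15 neighbours, resolution 1), with the 10 genes and the pathway lists left out. Clusters were named from at least 3 detected markers; the scoring thresholds were not fixed in advance. Counts were summed per tumour and class, and classes with at least 20 cells in each tumour were tested with edgeR 4.0.16 (filterByExpr, TMM, quasi-likelihood, Benjamini-Hochberg, threshold 0.05); DESeq2 1.42.0 was an alternative. CPM are not TMM-scaled, and fold changes are. Tests were tried on simulated counts first. With 2 tumours a group, p-values measure the spread between these tumours, and counting limits of 3 UMIs cover counting error only.

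The members, lists and named genes (every listed gene past the threshold, else the 3 with smallest p, of which only those of the inflammatory targets in 2 classes are printed) were chosen with earlier results of these data known. The labels speak of 2 pairs of tumours collected on separate days, and replicate numbers were read as those pairs, although the labels do not say that the number is the day. Deviations of same-numbered tumours correlated at 0.04 in phagocyte-like, 0.20 in T/NK-like, 0.35 in fibroblast-like, -0.01 in conventional dendritic-like and 0.09 in plasmacytoid dendritic-like cells. The main fit has no block.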

Additional observations from a re-analysis of the deposited data

Results flagged for a closer look

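The effect of the host on Nfkbiz differed between T/NK-like and phagocyte-like cells by -1.24 on the log2 scale, and between conventional dendritic-like and phagocyte-like cells by -3.08. For Nfkbia the latter difference was -1.78. These were picked out because the test of the difference itself passed in edgeR (adjusted p = 0.0264, 7.92e-04 and 0.0314). The comparison of conventional dendritic-like with phagocyte-like cells was added after the levels were seen. The call of Nfkbiz between T/NK-like and phagocyte-like cells was lost with cells of at least 1000 UMIs and with a per-cell marker gate. Nfkbiz had log2 fold changes of 1.19 in phagocyte-like, -0.10 in T/NK-like and -1.95 in conventional dendritic-like cells, and Nfkbia 0.90 in phagocyte-like and -0.83 in conventional dendritic-like cells. None of these 5 values passed by itself. In conventional dendritic-like cells of the Il1a-/- tumours, free RNA could supply up to 98.1% and 230.2% of Nfkbiz and 34.4% and 56.8% of Nfkbia, and its part was not tested. No group has more than 2 tumours, so no single tumour was examined as an outlier.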

How the results depend on the processing

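The directions of the 10 genes in phagocyte-like cells held under every alternative fitted. Calls moved more. With replicate numbers as blocks, the calls were 83 genes in phagocyte-like, 2 of the 10 in phagocyte-like, 1066 genes in T/NK-like, 2 of the 10 in T/NK-like, 8 genes in conventional dendritic-like, 348 genes in plasmacytoid dendritic-like. With DESeq2, the calls were 116 genes in phagocyte-like, 3 of the 10 in phagocyte-like, 12 genes in fibroblast-like, 64 genes in plasmacytoid dendritic-like. With RLE scaling, the calls were 17 genes in phagocyte-like, 1 of the 10 in phagocyte-like, 17 genes for the conventional dendritic-like against phagocyte-like difference. Without a low-count filter, the calls were 553 genes in phagocyte-like, 4 of the 10 in phagocyte-like, 1574 genes in T/NK-like, 2 of the 10 in T/NK-like, 142 genes in fibroblast-like, 88 genes in conventional dendritic-like, 2 of the 10 in conventional dendritic-like, 230 genes in plasmacytoid dendritic-like, 337 genes for the T/NK-like against phagocyte-like difference, 3 of the 10 for the T/NK-like against phagocyte-like difference, 68 genes for the conventional dendritic-like against phagocyte-like difference, 4 of the 10 for the conventional dendritic-like against phagocyte-like difference. With the listed genes kept in clustering, the calls were 52 genes in phagocyte-like, 2 of the 10 in phagocyte-like. Without sub-clusters mostly of 1 library (added after seeing the data), the calls were 5 genes in phagocyte-like. Without CD8 T-like sub-clusters (added after seeing the data), the calls were 141 genes in T/NK-like, 0 of the 10 in T/NK-like. With cells of at least 1000 UMIs, the calls were 1 genes in conventional dendritic-like, 26 genes for the T/NK-like against phagocyte-like difference, 0 of the 10 for the T/NK-like against phagocyte-like difference. With a per-cell marker gate, the calls were 0 of the 10 for the T/NK-like against phagocyte-like difference. Leaving out each tumour in turn, the calls ranged over 1 to 300 genes (10 with all tumours) in phagocyte-like, 0 to 2 of the 10 (0 with all tumours) in phagocyte-like, 148 to 1622 genes (475 with all tumours) in T/NK-like, 0 to 2 of the 10 (1 with all tumours) in T/NK-like, 0 to 1 genes (0 with all tumours) in fibroblast-like, 0 to 0 of the 10 (0 with all tumours) in fibroblast-like, 0 to 88 genes (2 with all tumours) in conventional dendritic-like, 0 to 1 of the 10 (0 with all tumours) in conventional dendritic-like, 70 to 176 genes (109 with all tumours) in plasmacytoid dendritic-like, 1 to 1 of the 10 (1 with all tumours) in plasmacytoid dendritic-like, 0 to 195 genes (75 with all tumours) for the T/NK-like against phagocyte-like difference, 0 to 1 of the 10 (1 with all tumours) for the T/NK-like against phagocyte-like difference, 1 to 76 genes (27 with all tumours) for the conventional dendritic-like against phagocyte-like difference, 0 to 4 of the 10 (2 with all tumours) for the conventional dendritic-like against phagocyte-like difference. In fits without 1 tumour, the lone one is assumed to vary like the other group. Sign changes on the log2 scale were in genes not called. In T/NK-like cells the sign turned for Nfkbia to 0.0014 (DESeq2), Nfkbia to 0.0063 (RLE normalization), Nfkbia to 0.044, Nfkbiz to 0.080 (without WT replicate 1), Nfkbie to -0.13 (without WT replicate 2), Nfkbia to 0.11 (without Il1a-/- replicate 1), Nfkbia to 0.14, Nfkbiz to 0.048 (per-cell marker gate), Nfkbia to 0.13, Nfkbiz to 0.10 (list genes kept in clustering), Nfkbia to 0.19, Nfkbiz to 0.16 (with the unnamed T cell clusters), Nfkbia to 0.12, Nfkbiz to 0.17 (without CD8 T-like sub-clusters). In fibroblast-like cells the sign turned for Zc3h12a to 0.081 (replicate block), Nfkbia to -0.37, Zc3h12a to 0.63 (without WT replicate 1), Nfkbie to 0.22 (without WT replicate 2), Nfkbie to 0.49, Tnfaip3 to 0.13, Zc3h12a to 0.14 (without Il1a-/- replicate 1), Relb to -0.14, Nfkbia to -0.25, Icam1 to -0.60 (without Il1a-/- replicate 2), Zc3h12a to 0.076 (list genes kept in clustering). In conventional dendritic-like cells the sign turned for Tnfaip3 to 0.56 (without WT replicate 1), Nfkb1 to 0.060, Tnfaip3 to 0.27 (without Il1a-/- replicate 2). In plasmacytoid dendritic-like cells the sign turned for Nfkbia to 0.12 (without Il1a-/- replicate 1). Leaving out each tumour in turn, their log2 changes ran from -0.12 to 0.11 for Nfkbia in T/NK-like, -0.27 to 0.080 for Nfkbiz in T/NK-like, -0.13 to 0.26 for Nfkbie in T/NK-like, -0.45 to 0.63 for Zc3h12a in fibroblast-like, -0.37 to 0.53 for Nfkbia in fibroblast-like, -2.32 to 0.49 for Nfkbie in fibroblast-like, -0.47 to 0.13 for Tnfaip3 in fibroblast-like, -0.14 to 0.98 for Relb in fibroblast-like, -0.60 to 1.02 for Icam1 in fibroblast-like, -0.68 to 0.56 for Tnfaip3 in conventional dendritic-like, -0.65 to 0.060 for Nfkb1 in conventional dendritic-like, -0.55 to 0.12 for Nfkbia in plasmacytoid dendritic-like cells. The cause of these changes was not tested. The per-cell gate was not run for conventional dendritic-like cells, since 1 tumour had 2 cells. Depth limits the dendritic classes: the Il1a-/- tumours held 1 to 135 UMIs per gene of the 10 in conventional and 1 to 77 in plasmacytoid dendritic-like cells.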
